A study of Yucca flaccida with 12 samples.

Results

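The centre and the edge of the leaf were compared over both leaf types of Yucca flaccida 'Golden Sword', an ornamental monocot grown in vitro, to ask which differences between the zones are shared by variegated and unvariegated leaves. All 12 libraries of the series entered the comparison by their labelled zone: 6 from the leaf centre, of which 3 came from variegated (VC) and 3 from unvariegated leaves (UC), against 6 from the leaf edge, of which 3 came from variegated (VE) and 3 from unvariegated leaves (UE). All plants belonged to the same cultivar, received no treatment and were sampled at the second youngest leaf. The labels name neither the pale zone nor the plant each library came from, so p-values measure the spread between these libraries, which may be technical.

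Variegated leaves carry zones with different pigment content, usually because chloroplasts form poorly in some cells. Edge and centre of a blade also differ in position, thickness and vascular tissue whatever their colour, and both leaf types share that. Each library is polyadenylated RNA from a whole piece of tissue, in which fewer cells of a type and less RNA per cell cannot be told apart. Genes are here clusters of assembled transcripts. The files do not pair their identifiers with gene names, so no pathway, cell type marker or function could be assigned to them, and tissue identity was not checked against markers.

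The libraries held 13139086 to 20306020 estimated counts, and 59225 of 185746 genes passed the filter on low counts. Levels are given as CPM, counts relative to a library size that was scaled by the trimmed mean of M-values (TMM), a scaling that sets the typical gene equal across libraries. The choice of scaling bears on most results below, because the scaling factors differed by zone in variegated leaves, with 0.958 to 1.165 in VC against 0.807 to 0.878 in VE. In unvariegated leaves they overlapped, with 1.051 to 1.143 in UC and 0.981 to 1.09 in UE. Effective gene lengths, estimated in each library from the deposited counts and FPKM, stood apart in UC. There they were 8.9 to 24.4 bases longer than the median of the other libraries, which themselves ranged over -2.6 to 2.7 bases (medians over 7649 genes). These are not the lengths of the transcripts themselves, and why they differed was not tested.

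Few genes differed between centre and edge once both leaf types were pooled. In an additive fit of zone and phenotype, 2 of 59225 genes passed an adjusted p of 0.05 (0.00338%), both higher in the centre (0.00338% in that direction) and none lower (quasi-likelihood test of edgeR, p-values adjusted by Benjamini-Hochberg, 6 centre against 6 edge libraries). These 2 genes, Cluster-20123.55719 and Cluster-20123.55721, were 5.36 to 7.19 times higher in the centre of either leaf type. DESeq2 on the same model called 86 genes higher and 316 lower. Unadjusted, 4979 genes had a p below 0.05 (8.41%), with 2149 higher (3.63%) and 2830 lower (4.78%) in the centre. With the adjusted threshold moved to 0.25, 24 genes were higher and 23 lower.

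Cluster-20123.55719 had 172, 175 and 132 CPM in VC, against 30.3, 21.8 and 18.5 CPM in VE. In unvariegated leaves it had 11.5, 11.7 and 10.2 CPM in UC, against 1.38, 1.19 and 2.5 CPM in UE. Centre and edge did not overlap within either leaf type, but every VE library lay above every UC library, so the zones separate only within a leaf type. The ratio of the centre mean to the edge mean was 6.78 in variegated and 6.56 in unvariegated leaves. Pooled, its log2 fold change was 2.73 (SE 0.18, adjusted p = 0.0001, edgeR's quasi-likelihood test). The zone differences of variegated and unvariegated leaves differed by 0.08 on the log2 scale (SE 0.38, adjusted p = 0.989 for the interaction in edgeR). The pooled call stayed past the threshold in 26 of 27 alternative settings, and was lost when phenotype was not in the model (adjusted p = 0.805 in edgeR).

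Cluster-20123.55721 had 564, 608 and 539 CPM in VC, against 94.4, 75.4 and 68.2 CPM in VE. Its unvariegated libraries had 32.2, 43.4 and 32.9 CPM in UC, against 5.64, 3.38 and 11.2 CPM in UE. The order of the 4 groups was that of Cluster-20123.55719, again without overlap between neighbouring groups. The pooled log2 fold change was 2.64 (SE 0.24, adjusted p = 0.0027 in edgeR), from 2.85 in variegated and 2.41 in unvariegated leaves, and these differed by 0.44 (SE 0.45, adjusted p = 0.861 in edgeR). It was past the threshold in 24 of 27 alternative settings. The call was lost with VE1 and UE1 both left out (adjusted p = 0.0883 in edgeR), with the replicate number as a block within phenotype (0.0529) and without phenotype in the model (0.805).

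Levels of the 2 genes varied far more between libraries than their proportion to each other. Per length, in deposited FPKM, Cluster-20123.55721 stood 3.16 to 5.1 times above Cluster-20123.55719, with a median of 3.96. Both are short, with effective lengths of 214 bases for Cluster-20123.55721 and 244 bases for Cluster-20123.55719. The counting method can share reads among similar transcripts, which leaves fractional counts, but the expected counts of both were whole in all 12 libraries. Whether these clusters are separate genes was not tested. Taken as a description over the 12 libraries, which share leaf types and zones, a Pearson correlation of log2 CPM of 0.95 or more was found with Cluster-20123.55719 for 10 other tested genes and with Cluster-20123.55721 for 8.

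**Figure D1:**
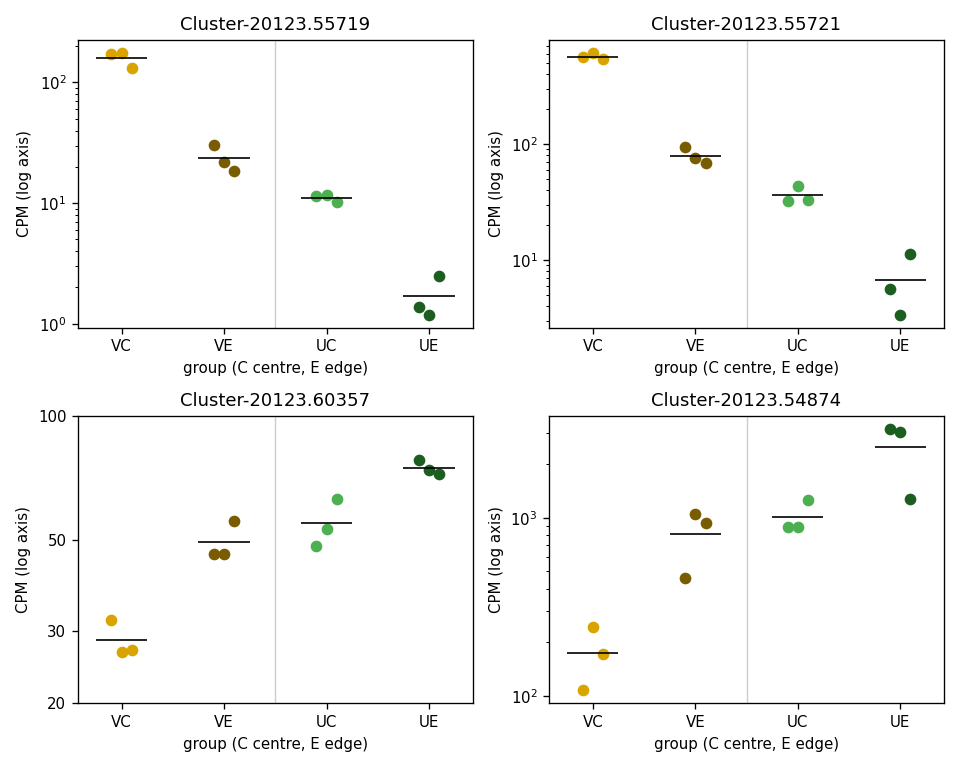
CPM (log axis) of 4 genes in the 3 libraries of each group, with the group mean as a line; C marks centre and E edge, V variegated and U unvariegated leaves. In the upper panels centre lies above edge in both leaf types, with every VE library above every UC library; in the lower panels centre lies below edge in both leaf types, narrowly so for Cluster-20123.54874, where UC3 had 1265 and UE3 1273 CPM.

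No gene passed in the other direction, and the 2 lower genes given here were chosen after their values were seen. Cluster-20123.60357 had the lowest p of genes that were lower without overlap in both leaf types and averaged 10 CPM or more. It had 32, 26.7 and 27 CPM in VC, against 46.3, 46.1 and 55.5 CPM in VE. In unvariegated leaves it had 48.4, 53 and 63 CPM in UC, against 78.1, 73.9 and 72.2 CPM in UE. The centre was lower in each leaf type by less than 2-fold, with a pooled log2 fold change of -0.62 (SE 0.11, adjusted p = 0.21 in edgeR, range over alternatives 2e-05 to 0.818).

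Cluster-20123.54874 was the most abundant gene that was lower by at least 2-fold in both leaf types without overlap. It had 108, 242 and 172 CPM in VC, against 462, 1044 and 930.5 CPM in VE. UC had 893, 888 and 1265 CPM, against 3138, 3045 and 1273 CPM in UE. UE3 lay just above UC3 and far below the other UE libraries, so the lack of overlap in unvariegated leaves rests on a margin smaller than the spread in either zone. The pooled log2 fold change was -1.76 (SE 0.32, adjusted p = 0.21 in edgeR), and without UE3 it was -1.95 (adjusted p = 0.0478 in edgeR; range over all alternatives 6.81e-06 to 0.834).

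Each leaf type gave its own zone difference, from the same 12 libraries fitted with a mean per group. Centre and edge differed for 565 genes in variegated leaves (0.954%) and for 1 gene in unvariegated leaves (0.00169%). The gene called in unvariegated leaves was Cluster-20123.55719, with a log2 fold change of 2.68 there (SE 0.28, adjusted p = 0.0384 in edgeR) and 2.76 in variegated leaves (SE 0.25, adjusted p = 0.000793 in edgeR). A gene counts as shared by the strictest reading when both differences have the same sign and the larger of their 2 p-values passes adjustment over all genes. By that test 1 gene was shared (0.00169%), again Cluster-20123.55719 (adjusted p = 0.0384). Without UE3, 2 genes met it, and without VE1 it was 1. The count was 0 when any of the other 10 libraries was left out. The zone differences of the leaf types were themselves different for 57 genes (0.0962%, interaction in edgeR).

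Genes without overlap between zones were about as often opposed as shared with all 12 libraries, a balance that single libraries moved. In 302 genes (0.51%) every centre library lay above every edge library within each leaf type, and in 341 genes (0.576%) every centre library lay below. Against these 643 genes of like direction stood 632 of opposite direction: 304 higher in VC than VE and lower in UC than UE (0.513%), and 328 lower in VC and higher in UC (0.554%). Leaving out a library loosens the rule, and like directions then led with 1660 genes against 1105 without UE3 and 1662 against 1326 without UC3, while without UE2 opposed directions led with 1444 against 1251. By unadjusted p below 0.05 in both leaf types, 120 genes were higher and 196 lower in both centres, while 95 were higher in VC and lower in UC and 150 the reverse. Of the 302 genes higher in both centres, 95 differed by at least 2-fold in each leaf type, and of the 341 lower genes 58 did. Over all 59225 tested genes, with or without overlap, 944 were higher and 473 lower by that much in both. Median log2 fold changes were 0.95 in variegated and 0.88 in unvariegated leaves for the higher genes, and -0.66 and -0.46 for the lower ones, values that the choice of genes sets in part. The sets also differed in abundance, with median levels of 1.92 CPM for the higher and 10.4 CPM for the lower genes. Among their members averaging 10 CPM or more, the medians were 0.48 and 0.44 for the higher genes, and -0.46 and -0.33 for the lower ones.

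**Figure D2:**
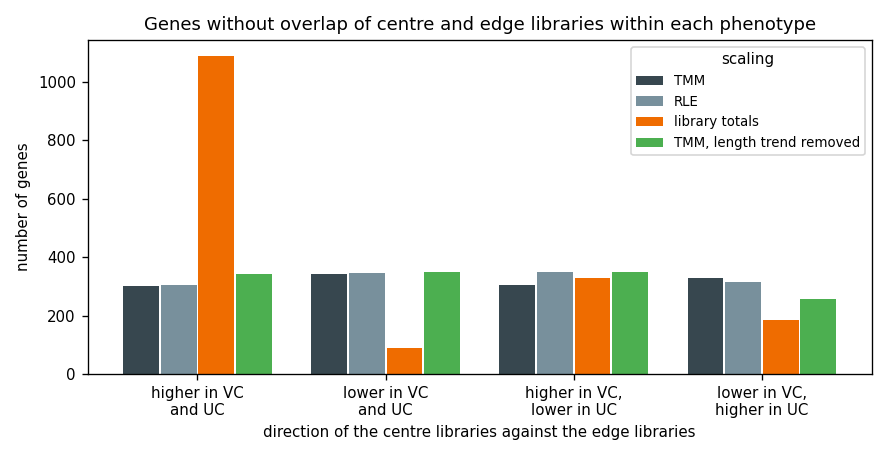
Number of genes whose 3 centre libraries all lay above or below the 3 edge libraries within each leaf type, by direction, for 4 ways of scaling. With TMM the directions held 302, 341, 304 and 328 genes; with library totals only, the genes higher in both centres numbered 1087 and those lower 88.

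Scaling moved the balance of these counts. Dividing by library totals alone raised the median log2 fold change of all genes by 0.22, and the genes without overlap became 1087 higher and 88 lower in both centres, with 515 in opposite directions. Size factors by relative log expression (RLE) gave 304 higher and 346 lower, with 666 in opposite directions. With all libraries, the near balance of like and unlike directions was thus seen with TMM and RLE, which set the typical gene equal, and not with library totals. Removing the trend with effective length, in which UC stood apart, gave 341 higher and 348 lower with 604 in opposite directions.

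Length moved with zone in opposite ways in the leaf types. The 9264 genes with effective lengths below 300 bases had median log2 fold changes of -0.07 in variegated and 0.23 in unvariegated leaves. Of these genes 148 were lower in VC and higher in UC without overlap, against 17 of the reverse kind. Over all tested genes these kinds numbered 328 and 304. From 1000 bases upward the pattern turned, with 54 and 197 of 27672 genes. Both kinds together made up 1.78% of the short genes and 0.907% of the long ones, against 1.07% of all tested genes. UC, whose effective lengths stood apart, takes part in each of these counts, and the counts by length were not recomputed with the length trend removed. Over all lengths that removal gave 348 genes higher in VC and lower in UC, and 256 lower in VC and higher in UC.

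Among abundant genes the shared differences leaned toward lower levels in the centre. Of 13784 genes averaging 10 CPM or more, 37 were higher and 175 lower in both centres without overlap, against 125 and 59 in the 2 opposed directions. Like directions made up 1.54% of these genes and opposed ones 1.33%, against 1.09% and 1.07% of all tested genes. Over all tested genes 302 were higher and 341 lower in both centres. The lean was tied to scaling: with library totals, 249 were higher and 29 lower. Relative to the median of all genes, which either scaling leaves in place, the 1334 genes of at least 100 CPM had a pooled median of -0.16 on the log2 scale. This median was -0.20 in variegated and -0.14 in unvariegated leaves, so the most abundant genes stood below the typical gene in the centres of both. Genes under 1 CPM stood above it, by 0.09 in variegated and 0.21 in unvariegated leaves. Among genes averaging 100 CPM or more, 19 stood higher and 318 lower at an unadjusted p below 0.05 with TMM, but 135 were higher and 84 lower with library totals.

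Large zone differences of abundant genes were more numerous in variegated leaves. Among genes averaging 10 CPM or more, 628 genes differed between zones by at least 2-fold in variegated leaves and 95 in unvariegated leaves. In both leaf types 10 were higher and 25 lower by at least 2-fold, and 13 differed by as much in opposite directions. The 35 genes of like direction made up 5.57% of the variegated list and 36.8% of the unvariegated list, and the 13 opposed genes were on both lists too. Of all these abundant genes 4.56% were on the variegated list, a share that counts either direction and so is not a like measure to 36.8%. At 4-fold or more, 2 were higher, 2 lower and none opposed. The 2 higher genes were Cluster-20123.55719 and Cluster-20123.55721. Zone differences were larger in absolute size in variegated leaves for 66.4% of these abundant genes, with median absolute log2 values of 0.232 in variegated and 0.143 in unvariegated leaves. Across these genes, which are not independent replicates, the 2 zone differences had a Pearson correlation of 0.12. Over all tested genes the leaf types stood closer, with 9200 genes at 2-fold or more in variegated and 6944 in unvariegated leaves. There the zone difference was larger in variegated leaves for 57.4% of genes, and the correlation was 0.035.

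**Figure D3:**
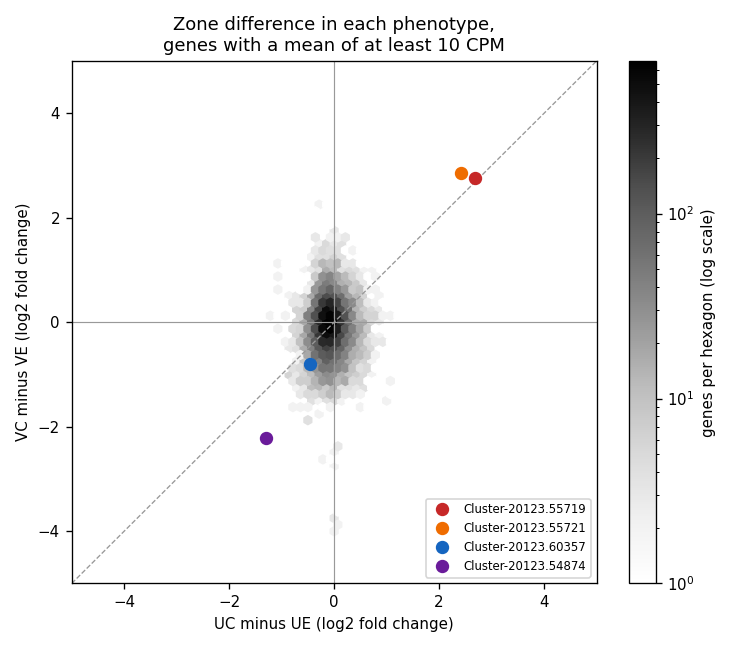
Log2 fold change of centre over edge in variegated leaves (vertical) against that in unvariegated leaves (horizontal) for 13784 genes averaging 10 CPM or more, shaded by number per hexagon on a log scale (hexagons with a single gene appear white); 12 genes lie beyond the axes and the dashed line marks equal differences. Cluster-20123.55719 and Cluster-20123.55721 lie apart from the cloud at 2.68 and 2.76, and at 2.41 and 2.85, while the cloud is taller than wide.

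The spread of expression over the libraries was taken up little by zone. Averaged over tested genes, zone held 10.4% of the sum of squares of log2 CPM, the interaction 9.69% and phenotype 22.3%, where each has 9.09% of the degrees of freedom. Medians over the same genes were 5.44% for zone, 4.8% for the interaction and 14.6% for phenotype. Among genes averaging 10 CPM or more, zone held 11.3%, the interaction 10.3% and phenotype 30.5%. Of all 59225 tested genes, zone took over 50% of the sum of squares in 936, the interaction in 887 and phenotype in 8496. The remainder, between libraries of the same group, held 57.6% on average over these genes, where it has 72.7% of the degrees of freedom.

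Counts were spread over more genes in the centre than at the edge. The most abundant genes that together hold 50% of the counts numbered 1015, 1244 and 1543 in VC, against 581, 581 and 677 in VE. There were 1345, 1336 and 1102 in UC, against 965, 924 and 1275 in UE. The groups did not overlap in variegated leaves, and in unvariegated leaves UE3 lay above UC3. The mean was 1264 ± 189 in the centre and 834 ± 273 at the edge (SD, n = 6 each). The difference averaged over leaf types was 430 genes (exact permutation of zone within each leaf type, two-sided p = 0.01, adjusted p = 0.04 over 8 library measures, smallest possible p 0.005). The share of counts in the 100 most abundant genes of each library ran the other way, with 24% ± 1.59 in the centre and 29.2% ± 3.08 at the edge (SD, n = 6 each) and the same exact permutation p of 0.01 and adjusted p of 0.04.

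Both differences were larger in variegated leaves, at 654 genes and -8.5 percentage points, than in unvariegated leaves, at 206 genes and -1.87 points, and the difference between leaf types was not tested. Permuting zone within variegated leaves gave both an exact p of 0.1, which is the lowest value reachable with 3 libraries a zone, and within unvariegated leaves an exact p of 0.2. The adjusted p of both measures rose to 0.06 without VE1, VE2 or VE3, to 0.0533 without UC1, to 0.08 without UC2 and to 0.1 without UE1 or UE2. The unadjusted exact permutation p in these settings was 0.01 to 0.025.

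**Figure D4:**
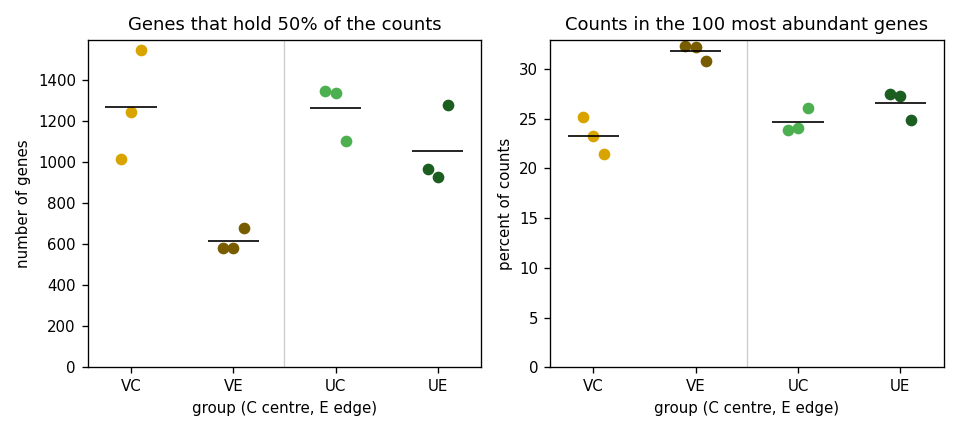
Number of most abundant genes that hold 50% of a library's counts (left) and percent of counts in its 100 most abundant genes (right), by library, with group means as lines. VC lies above VE on the left and below it on the right without overlap; in unvariegated leaves UE3, at 1275 genes and 24.8%, falls among the UC libraries.

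The other library measures did not pass the test. Detected genes numbered 107380 ± 6585 in the centre and 105039 ± 5174 at the edge (SD, n = 6 each; exact permutation p = 0.545, adjusted p = 0.727). Counts outside the largest assembly group were 2.35% ± 0.229 in the centre and 2.07% ± 0.237 at the edge (SD, n = 6 each; exact permutation p = 0.065, adjusted p = 0.13). Principal components were computed on the 1000 most variable genes after each leaf type was centred on its own mean. Their component PC2, with 12.8% of the variance, placed VC at 21.8 to 34.2 and VE at -53.7 to -14.8, but UC at -10.5 to 23.5 and UE at -10.4 to 12.7 (exact permutation p = 0.035, adjusted p = 0.0933). PC1 and PC3, with 16.1% and 11.1%, had adjusted p of 0.96 in the same exact permutation test.

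Genes near absence in a zone were few among all 185746 genes and of low count, by a rule on unscaled counts. By at least 30 counts over the 6 libraries of a zone, presence in at least 2 libraries of each leaf type there, and at most 3 counts in the other zone, 96 genes were seen in the centre and 26 at the edge. Their median total was 41 counts in the centre set and 39 in the edge set, the highest total was 243 counts, and 17 of the 96 and 6 of the 26 were present in all 6 libraries of their zone. Only 25 of the 96 and 3 of the 26 were abundant enough to be tested. The numbers moved when single libraries were left out, from 34 in the centre set and 59 in the edge set without VC3 to 297 and 9 without UE3. Leaving out a centre library tightens the count rule for the centre set and loosens the limit for the edge set. Leaving out an edge library does the reverse, so the direction of these shifts is set by the rule.

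The number of pooled calls depended on the model. Where zone was averaged over a fit with a mean per group, 60 genes passed instead of 2, of which 13 were higher and 47 lower in the centre. Unlike the additive fit, this fit also takes the interaction of zone and phenotype out of the error. The 13 higher genes had median log2 fold changes of 1.59 in variegated and 1.17 in unvariegated leaves, and 10 of them had no overlap in either leaf type. The 47 lower genes had medians of -3.25 in variegated and -0.37 in unvariegated leaves. Of these, 12 lacked overlap in both leaf types, 45 were called in variegated leaves by themselves and 18 in the interaction, which uses the same libraries. DESeq2 on the additive model called 402 genes. Without UE3 the additive edgeR fit called 9 higher and 8 lower.

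**Figure D5:**
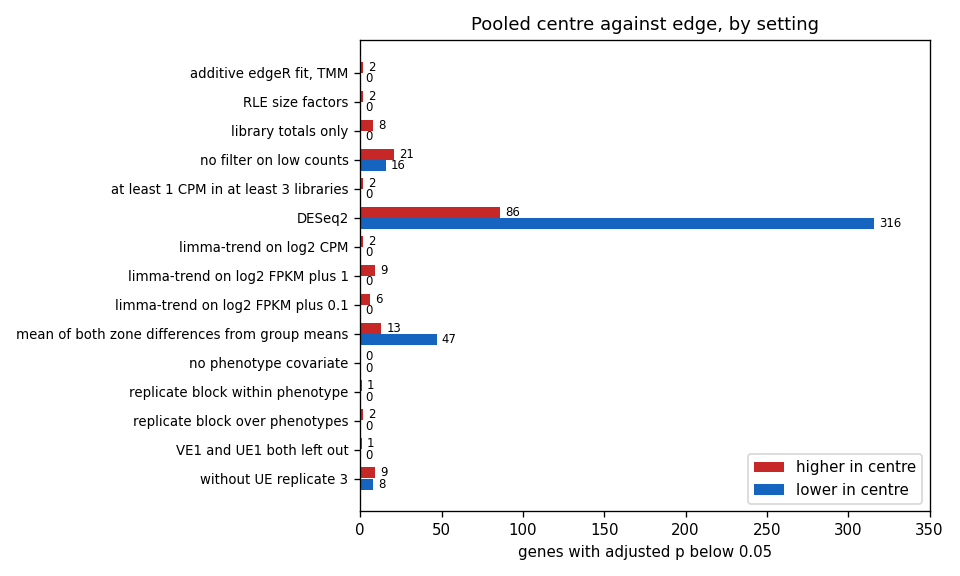
Genes with adjusted p below 0.05 in the pooled comparison, higher (red) or lower (blue) in the centre, for 15 settings. The additive edgeR fit gave 2 and 0, the mean of both zone differences from group means 13 and 47, and DESeq2 86 and 316.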

How the data were processed

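RNA from leaf centre and edge was sequenced in 12 libraries, 3 per group, named by the sample titles. The tools listed in the submitters' processing notes are Bowtie2, CASAVA 1.8 and RSEM, while the assembly that reads were aligned to is not given in the sources used here. Per gene, the authors deposited expected counts (21.3% not whole) and FPKM values. FPKM served for effective gene lengths and as an alternative.

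Expected counts were rounded and filtered with filterByExpr (minimum count 10, minimum total 15). Genes were tested in R 4.3.3 by edgeR 4.0.16 after TMM scaling, in a robust quasi-likelihood fit of phenotype plus zone, checked on simulated data. Standard errors are the log2 fold change divided by the root of the F statistic. No replicate pair agreed within sampling noise (chi-square per degree of freedom 9.75 to 34.7).

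The members and lists were chosen with earlier results of these data known. The rule for named genes took the 2 highest and 2 lowest log2 fold changes among genes past the adjusted threshold of 0.05 that averaged 10 CPM or more and, where possible, had no overlap in both phenotypes; no lower gene met it. Alternatives covered scaling, filter, tool (DESeq2 1.42.0, limma-trend from limma 3.58.1), model, replicate block, gene length and each library left out. Lists of photosynthesis, pigment and cell type genes were not applied, since identifiers carry no names.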

Additional observations from a re-analysis of the deposited data

Results flagged for a closer look

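The zone difference itself differed between variegated and unvariegated leaves for 57 genes, 0.0962% of all tested genes (interaction in edgeR, adjusted p below 0.05). Neither Cluster-20123.55719 nor Cluster-20123.55721 was among them, with interactions of 0.08 (SE 0.38) and 0.44 (SE 0.45) on the log2 scale. Of the 643 genes without overlap in the same direction in both leaf types, 1 of 302 higher and 2 of 341 lower genes were. These counts are too small to compare with that share.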

How the results depend on the processing

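The 2 pooled calls, both higher in the centre, stayed at 2 with RLE scaling, a filter of 1 CPM, no robust step, limma-trend on CPM and the length trend removed. The calls were 8 (8 higher) with library totals, 37 (21 higher, 16 lower) without a filter, 402 (86 higher, 316 lower) with DESeq2, and 60 (13 higher, 47 lower) from group means. They were 9 with limma-trend on log2 FPKM plus 1 and 6 with FPKM plus 0.1, all higher, 1 with VE1 and UE1 both left out and 0 without the phenotype covariate. Leaving out single libraries gave 2 to 17 calls, 2 to 9 higher and 0 to 8 lower, with the most without UE3 and 4 without VC3 or VE1. The shared call became 2 with DESeq2, and 0 with VE1 and UE1 left out, with the length trend removed or with each phenotype fitted by itself, and 0 to 2 without single libraries. A replicate block within phenotype gave 1 pooled call, losing Cluster-20123.55721 (adjusted p = 0.0529 in edgeR), and 0 shared calls, while a replicate block over phenotypes gave 2 pooled calls. Same-numbered libraries deviated together weakly and not in all pairs (correlations -0.047 to 0.13, above 0.1 in 3 of 6 pairs). Yet 9 of 12 libraries correlated best with their own number, so pairing by number is not excluded. The labels do not state pairs, and the main fit did not use them.

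Genes without overlap, with library totals, numbered 1087 higher and 88 lower in both centres (1175 in all), and 249 and 29 among genes averaging 10 CPM or more. With VE1 and UE1 left out, which loosens the rule, they numbered 799 and 959 (1758 in all, against 1560 in opposite directions), and 82 and 366 among the abundant genes. Leaving out single libraries loosens it too and gave 489 to 710 higher, 462 to 980 lower, 969 to 1662 in the same and 901 to 1444 in opposite directions, and 36 to 93 higher and 214 to 573 lower among the abundant genes. By direction the opposed genes numbered 445 to 757 (higher in VC) and 456 to 687 (lower in VC), and 158 to 350 and 58 to 151 among the abundant genes.

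Without single libraries, the centre minus edge difference ranged over 361 to 493 genes holding 50% of counts. It was -5.65 to -4.72 points for the top 100 share and 0.211 to 0.362 points outside the largest assembly group. For total counts it was -1840000 to -48310. For detected genes it ranged over -334.3 to 4203, turning negative without VC3. On PC1, PC2 and PC3 it was 0.286 to 14, 13 to 39.3 and 0.56 to 30.8. The sign of a component is arbitrary, so these positive values do not show a stable direction. Nor need the axes match between settings. Without VE1 the difference was 13 on PC2 and 30.8 on PC3, against 31.85 and 0.545 with all libraries. Zone-restricted genes fell to 38 in the centre and 10 at the edge with 0 counts required in the other zone, and ranged over 34 to 297 and 8 to 59 without single libraries. For the zone-restricted genes the direction of the shifts is set by the rule, and the causes of the other shifts were not tested. Zone-restricted genes had few counts, with median totals of 41 (centre) and 39 (edge) over 12 libraries.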

Other observations

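The identifiers of both called genes lie close together in number, and the files do not say what the numbering follows. Of the 19 other tested genes numbered within 10 of them, 3 were higher in both centres without overlap, against 0.51% of all tested genes. By unadjusted p below 0.05, 3 were higher and 2 lower in the centre, and 8 of the 19 had a positive pooled log2 fold change. These 19 had pooled log2 fold changes of -0.94 to 2.56 with a median of -0.02. That window was chosen after the values were seen.

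Within a single leaf type, more genes were near absent at the edge than in the centre. A gene needed at least 30 counts in a zone and presence in at least 2 of its 3 libraries. In the other zone it could have at most 3 counts. Of 185746 genes, 371 were seen in VC and 260 in VE, and 288 in UC and 214 in UE. Counts were not scaled here, and the TMM factors were 0.807 to 0.878 in VE against 0.958 to 1.165 in VC. Whether depth accounts for the excess was not tested, and these numbers were not recomputed without single libraries.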
